A study of Homo sapiens with 12 samples.

Results

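RNA interference against FLI1 in A673 cells was described here across genes: 2 arrays of cells that received a FLI1 shRNA were set against 2 arrays of cells that received a lacZ shRNA, out of 12 arrays in the series. A673 is an established Ewing sarcoma line that carries the chromosomal fusion of EWSR1 with FLI1, an ETS transcription factor gene, and both shRNA groups are A673 cells infected with lentivirus, selected with puromycin and labelled 48 h, a time that could not be settled as counted from infection or from selection. The FLI1 shRNA is a single hairpin, so its effects on other transcripts cannot be told apart from those of losing FLI1, and the lacZ hairpin is directed at a bacterial gene. The other arrays are cells untreated at 0 h, cells given DMSO for 24 h, and cells given 5 nM or 50 nM actinomycin D for 24 h. In the fit they enter only the estimate of the spread between arrays. Their levels also count in choosing which array probes were kept for a gene, and untreated values are given for a few genes. Nothing in the labels says whether the 2 arrays of a group came from separate cultures, so each p-value rests on the spread between arrays, and that spread may be technical.

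The fusion protein EWS-FLI1 keeps the DNA-binding domain of FLI1, binds single ETS sites and repeats of the ETS core, and is the driver of Ewing sarcoma. It is known both to switch on genes that other cells leave silent, many of them neural, and to hold down genes of the mesenchymal programme: matrix, adhesion, contractility and secreted signals. All 18404 genes with a probe set of their own were described, a probe set being the group of array probes that reads 1 transcript, and the genes were read by family and function.

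The values are log2 signals normalized by RMA, so a difference of 1 is a doubling of signal. The array correlation was 0.998 between the FLI1 shRNA arrays and 0.9969 between the lacZ shRNA arrays, and array medians lay between 6.67 and 6.83 over the series. FLI1 itself, whose probes can also read the fusion transcript, gave 7.30 and 7.08 in FLI1 shRNA cells, against 8.63 and 8.45 in lacZ shRNA cells (log2 fold change -1.35 ± 0.09, SE, limma adjusted p = 5.39e-06), which left 39.2% of the lacZ signal. EWSR1, whose probes also read the other allele, differed by -0.29 ± 0.07 (adjusted p = 0.0166), and its adjusted p was between 0.0529 and 0.107 with any 1 of the 4 arrays left out. Of 8 Ewing sarcoma markers measured, 5 fell, 1 rose and 2 did not pass the test. The deepest fall was that of NKX2-2 (-1.35) and the rise that of GLI1 (0.52). The surface marker CD99 gave 11.98 and 11.92 after FLI1 shRNA, compared with 12.02 and 12.09 after lacZ shRNA. Of 6 blood markers 0 rose and 1 fell, of 6 endothelial markers 1 rose and 1 fell, and of 7 epithelial markers 0 rose and 1 fell. The last, KRT19, lost its call without either FLI1 shRNA array or without lacZ shRNA array 2, and the endothelial fall, PECAM1, differed by -0.55 on one probe set and 0.04 on the other, and did not keep its call where log2 values were averaged over both. PTPRC, the pan-leukocyte marker, was between 3.67 and 3.70 on all 4 arrays, VWF of endothelium between 5.13 and 5.29, and 0 of 6 skeletal muscle markers passed the test (0 at an unadjusted p under 0.05). As in any bulk sample, fewer cells of a type and less RNA per cell cannot be told apart.

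The response was broad, and its rises and falls started from different levels. At an adjusted p under 0.05 in the limma fit, 4398 of 18404 genes were called (23.9%), 2691 higher after FLI1 shRNA (14.6%) and 1707 lower (9.28%). Past a 2-fold change and an adjusted p under 0.01, 222 genes were higher (1.21%) and 110 were lower (0.598%). The FLI1 and lacZ shRNA arrays did not overlap for any of these 332, which their choice on the same 4 arrays makes nearly certain. The 222 higher genes had a median level of 8.34 in FLI1 shRNA cells and 6.90 in lacZ shRNA cells, while the 110 lower genes had a median of 7.98 in FLI1 shRNA cells and 9.24 in lacZ shRNA cells. Among the 4601 genes with the lowest lacZ level (2.26 to 5.88) 51 were higher and 1 was lower by over 2-fold, and among the 4601 with the highest level 21 were higher and 57 were lower. Part of this split is built in, since the lacZ level is a term of the difference and a dim gene has little room to fall. How large that part is was not tested. The steepest changes were nearly all rises: 20 genes were higher by over 4-fold and 1 was lower by over 4-fold, a split under the same limit. Without genes under the 40th percentile of mean level, 133 were higher and 103 lower. The count of all called genes dropped to 2633 without FLI1 shRNA array 1, to 2798 without FLI1 shRNA array 2 and to 2778 without lacZ shRNA array 2, whereas each of the 332 genes kept an adjusted p under 0.05 with any 1 of the 4 arrays left out.

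**Figure D1:**
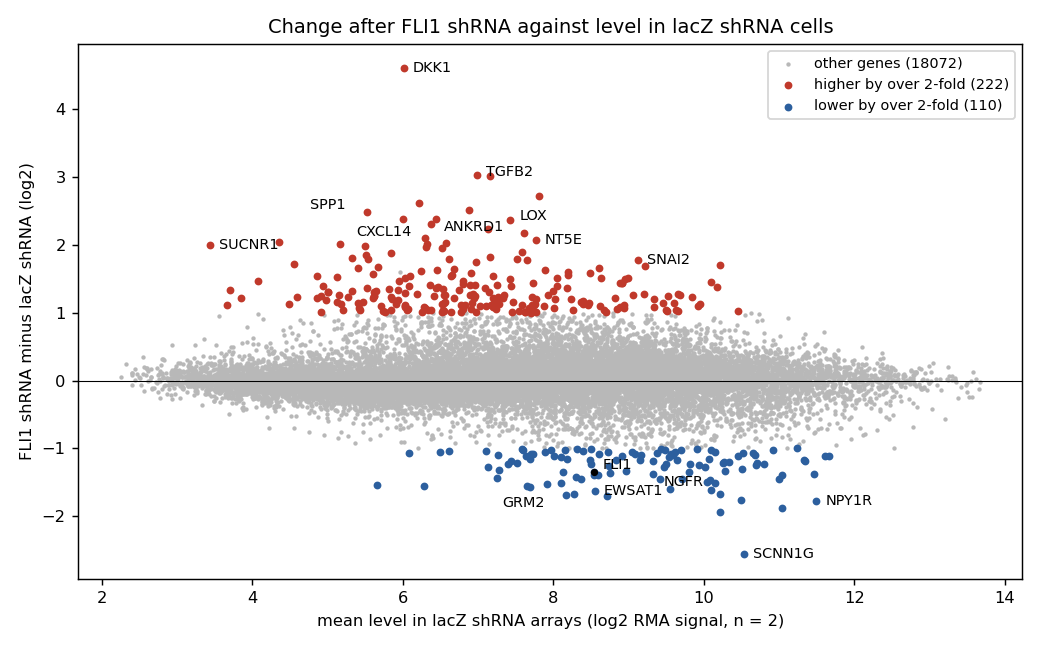
Each point is 1 of 18404 genes: the y axis is the FLI1 shRNA minus lacZ shRNA difference (log2, means of 2 arrays each) and the x axis the mean lacZ shRNA level (log2 RMA signal). The 222 genes in red spread over low and middle levels up to DKK1 at 4.61, and the 110 in blue lie mostly to the right, down to SCNN1G at -2.56.

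Genes for the fibrillar collagen matrix and for the enzymes that finish it were higher after FLI1 shRNA. Of 39 collagen chains measured, 10 rose and 1 (COL28A1) fell (25.6% and 2.56%, beside 14.6% and 9.28% of all genes). The median chain sat at -0.06 against -0.01 for all genes, so the rise belonged to some chains and not to the family. The leading chains form the fibrils of connective tissue. COL3A1, the type III chain, gave 9.50 and 9.35 on the FLI1 shRNA arrays and 7.55 and 7.73 on the lacZ shRNA arrays (1.78 ± 0.09, SE, adjusted p = 1.03e-06). COL1A2 gave 10.55 and 10.42 in FLI1 shRNA cells, against 9.22 and 9.20 in lacZ shRNA cells (1.27 ± 0.07), and its partner COL1A1 9.21 and 9.25 after FLI1 shRNA, compared with 8.54 and 8.67 after lacZ shRNA (0.63 ± 0.09). Within type I the alpha 2 chain thus moved further than alpha 1, which lay beside COL5A1 (0.64) and COL6A3 (0.58). The fall of COL28A1 was lost without any 1 of the 4 arrays. Of 25 genes for collagen processing, 11 rose and 0 fell in the limma fit, at a median of 0.22; 2 were lower at an unadjusted p under 0.05, and 7 rose without FLI1 shRNA array 1. LOX, the lysyl oxidase that crosslinks collagen and elastin, was at 9.74 and 9.86 on the FLI1 shRNA arrays and 7.53 and 7.32 on the lacZ shRNA arrays. Its relative LOXL2 was at 8.14 and 8.19 in FLI1 shRNA cells, against 6.96 and 6.93 in lacZ shRNA cells (1.22 ± 0.09, adjusted p = 5.97e-06). P4HA2, a prolyl hydroxylase subunit, rose by 0.98, and SERPINH1, the collagen chaperone HSP47, by 0.68 at a mean level of 12.03 in FLI1 shRNA cells. PLOD1, a lysyl hydroxylase, and LOXL1 rose by 0.54 and 0.47.

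The non-collagenous matrix split in 2 directions. Of 68 matrix glycoproteins and proteoglycans, 29 rose (42.6%, beside 14.6% of all genes), 6 fell (8.82%, beside 9.28%) and 33 did not pass. By over 2-fold 8 were higher and 1 was lower. MGP, matrix Gla protein, which holds back calcification, gave 7.27 and 7.10 after FLI1 shRNA, compared with 5.18 and 5.15 after lacZ shRNA (2.02 ± 0.20, adjusted p = 4.30e-05). POSTN, periostin, gave 7.54 and 7.43 on the FLI1 shRNA arrays and 5.50 and 5.49 on the lacZ shRNA arrays (1.99 ± 0.07, adjusted p = 9.09e-08). SPP1, the mineral-binding phosphoprotein osteopontin, which belongs to the bone markers here, gave 8.02 and 7.99 in FLI1 shRNA cells, against 5.62 and 5.43 in lacZ shRNA cells (2.48 ± 0.13, adjusted p = 1.31e-06). All 3 were among the dimmer genes in lacZ shRNA cells, near or under 5.6. FBN1, which builds microfibrils, CCN1 and CCN2, matricellular proteins that are classic targets of the coactivator YAP, and TGFBI, a collagen-binding protein that TGF-beta induces, rose by 1.56, 1.52, 1.28 and 1.23. The falls were those of HAPLN1, the link protein of hyaluronan and aggrecan (-1.07), ELN, elastin (-0.83), EDIL3 (-0.59), LAMB3 (-0.56), FBLN5, which organises elastic fibres (-0.55), and TNR (-0.41); EDIL3 lost its call without FLI1 shRNA array 1 or lacZ shRNA array 1, and TNR without array 2 of either group. Among 10 laminins 4 rose, LAMC1 and LAMA4 by 0.75 and 0.73, and LAMB3 was the 1 that fell. The 7 markers of bone and cartilage moved apart. RUNX2, the osteoblast transcription factor, rose by 1.17, ALPL, alkaline phosphatase, fell by 0.40, and ACAN and COL2A1 of cartilage gave -0.02 and -0.02. PHOSPHO1, a phosphatase of skeletal mineralization, was one of the deepest falls, at 8.57 and 8.52 after FLI1 shRNA, compared with 10.22 and 10.20 after lacZ shRNA (-1.66 ± 0.07).

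**Figure D2:**
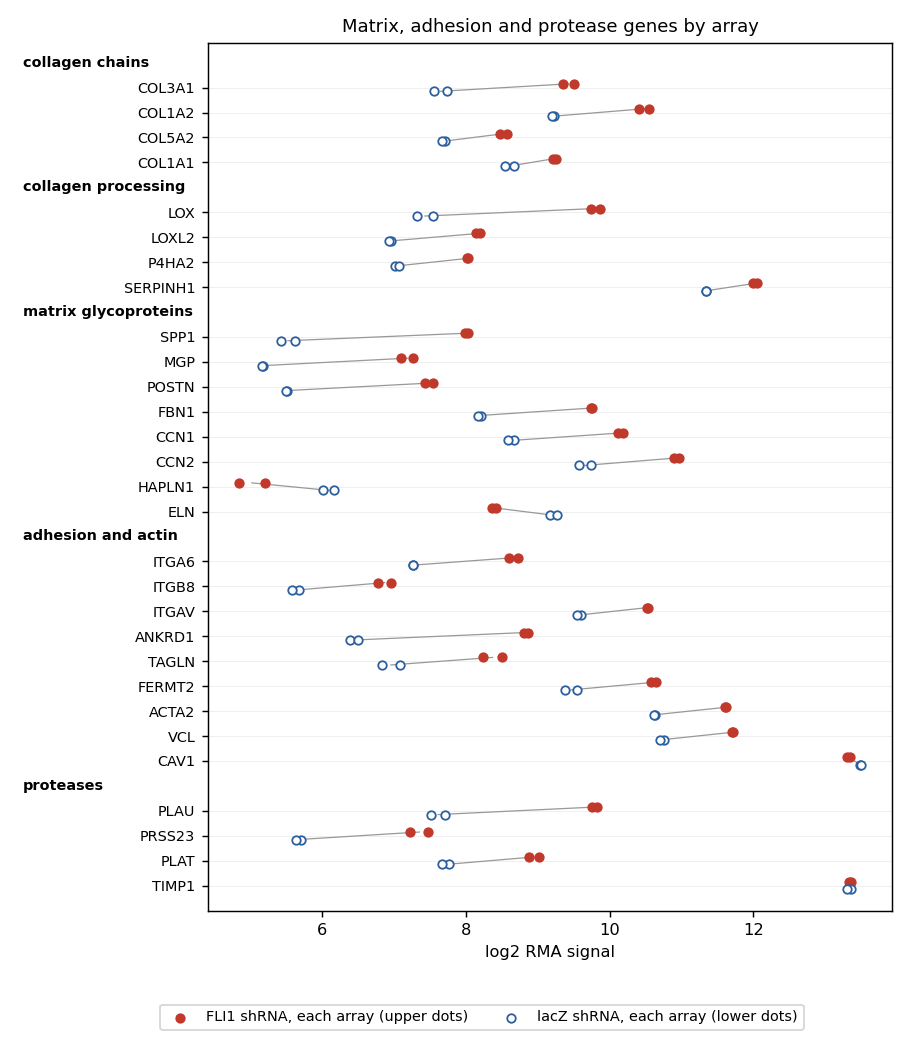
Each row is a gene, the x axis its log2 RMA signal; filled dots are the 2 FLI1 shRNA arrays and open dots the 2 lacZ shRNA arrays, with a line between the group means. All but CAV1 and TIMP1 have groups well apart, LOX and ANKRD1 by over 2 log2 units, and HAPLN1 and ELN run to the left.

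Cells receive force from the matrix through integrins, adaptor proteins and actin bundles, and genes of each layer rose. Of 26 integrins 8 rose and 1 fell (30.8% and 3.85%, beside 14.6% and 9.28% of all genes). ITGA6, the laminin-binding alpha 6 chain, gave 8.73 and 8.60 on the FLI1 shRNA arrays and 7.26 and 7.26 on the lacZ shRNA arrays (1.41 ± 0.11, adjusted p = 1.26e-05). ITGB8 and ITGAV, which pair into a receptor that activates latent TGF-beta, gave 1.24 ± 0.14 and 0.96 ± 0.08, and ITGA3, ITGA5 (the fibronectin receptor chain) and ITGA4 rose by 0.94, 0.75 and 0.67. The alpha chains that rose therefore cover laminin, fibronectin and vitronectin receptors.

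Of 57 genes of actin, contraction and focal adhesion, 32 rose and 3 fell (EVL, MYH10 and TNS1, at -0.31, -0.34 and -0.37), at a median of 0.29. The calls of EVL and MYH10 were each lost in 2 of the 4 fits without 1 array, EVL without FLI1 shRNA array 1 or lacZ shRNA array 2 and MYH10 without FLI1 shRNA array 2 or lacZ shRNA array 1. ANKRD1, an ankyrin repeat protein of stretched muscle and another YAP target, gave 8.80 and 8.86 in FLI1 shRNA cells, against 6.39 and 6.50 in lacZ shRNA cells (2.39 ± 0.10, adjusted p = 2.95e-07). TAGLN, transgelin of smooth muscle, gave 8.50 and 8.24 after FLI1 shRNA, compared with 6.83 and 7.08 after lacZ shRNA (1.41 ± 0.14). FERMT2, kindlin-2, which activates integrins, rose by 1.14 and VCL, vinculin, by 0.98 from levels already high in lacZ shRNA cells, 9.46 and 10.73. ACTA2 and ACTG2, the smooth muscle actins, rose by 0.99 and 0.97; their sequences are near-identical and their probes may read both. The other smooth muscle markers CNN1 and MYH11 gave 0.18 and -0.14 and did not pass, so 2 of 4 rose. CAV1, caveolin-1, the highest gene of the list, did not pass at 13.30 and 13.34 on the FLI1 shRNA arrays and 13.48 and 13.51 on the lacZ shRNA arrays. PHLDB2, which tethers microtubules near focal adhesions, was at 8.46 and 8.50 in FLI1 shRNA cells, against 6.65 and 6.40 in lacZ shRNA cells (1.95 ± 0.14), and LURAP1L rose by 1.80. In the other direction RGS7BP, which anchors a regulator of G-protein signalling, fell by 1.38.

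Of 22 cadherins, adhesion molecules between cells, 3 rose and 4 fell (13.6% and 18.2%, beside 14.6% and 9.28% of all genes), and 15 did not pass. CDH2, N-cadherin, gave 10.71 and 10.67 after FLI1 shRNA, compared with 9.67 and 9.66 after lacZ shRNA (1.03 ± 0.07, adjusted p = 4.19e-06) and CDH10 rose by 1.41. CDH12 gave 8.96 and 8.97 on the FLI1 shRNA arrays and 10.40 and 10.17 on the lacZ shRNA arrays (-1.33 ± 0.09, adjusted p = 3.89e-06), and CDH23, CDH8 and CDH11, the last a mesenchymal cadherin, gave -0.84, -0.63 and -0.63 and fell. CDH2 and CDH11, both cadherins of mesenchymal cells, thus moved in opposite directions. Of the other surface proteins, 21 of 55 rose and 5 fell (38.2% and 9.09%, beside 14.6% and 9.28% of all genes). NT5E, the ecto-nucleotidase CD73, was at 9.88 and 9.80 in FLI1 shRNA cells, against 7.77 and 7.77 in lacZ shRNA cells (2.07 ± 0.09, adjusted p = 4.60e-07), and CD44, the hyaluronan receptor, at 9.80 and 9.81 after FLI1 shRNA, compared with 8.15 and 8.25 after lacZ shRNA (1.61 ± 0.07, adjusted p = 4.60e-07). MCAM and TSPAN18 rose by 0.92 and 0.94. STEAP1 and the metalloreductase STEAP2 both fell, STEAP2 to a difference of -0.99. In 2 families that bind calcium 0 members fell in the limma fit (3 annexins and 0 S100 proteins were lower at an unadjusted p under 0.05): 7 of 17 annexins rose (2 without FLI1 shRNA array 2), led by ANXA6 at 0.75, and 5 of 22 S100 proteins, led by S100A10 and S100A3 at 1.37 and 1.27.

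Proteases that open the matrix rose beside the proteins that build it. Of 57 matrix proteases and inhibitors, 21 rose and 2 fell, at a median of 0.20; ADAM17, at -0.31, lost its fall without any 1 of the 4 arrays. Both plasminogen activators were higher: PLAU, urokinase, at 9.75 and 9.82 on the FLI1 shRNA arrays and 7.52 and 7.71 on the lacZ shRNA arrays, and PLAT, the tissue type, at 9.02 and 8.87 in FLI1 shRNA cells, against 7.77 and 7.67 in lacZ shRNA cells (1.23 ± 0.08). PRSS23, a secreted serine protease, gave 7.22 and 7.48 after FLI1 shRNA, compared with 5.70 and 5.64 after lacZ shRNA (1.68 ± 0.14, adjusted p = 1.36e-05). ADAMTS9, which cuts proteoglycans, SERPINB9, the granzyme B inhibitor, and MMP14, a membrane-bound matrix metalloprotease, rose by 1.25, 1.09 and 0.87. Of the inhibitors of metalloproteases, TIMP3 fell by 0.84, and TIMP1, the brightest gene of the list, gave 13.33 and 13.36 on the FLI1 shRNA arrays and 13.36 and 13.31 on the lacZ shRNA arrays, a difference of 0.01 ± 0.06. Of 33 complement and coagulation genes 11 rose and 3 fell (33.3% and 9.09%, beside 14.6% and 9.28% of all genes). TFPI, the inhibitor of tissue factor, F2RL2, a thrombin receptor, A2M and C1S rose by 1.07, 1.03, 0.93 and 0.84. The terminal complement genes C5, C6 and C7 fell, with differences of -0.99, -0.75 and -0.72.

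In the TGF-beta and BMP list of 56 genes, 16 rose and 8 fell; without lacZ shRNA array 2, 10 rose, and without FLI1 shRNA array 1, 1 fell. With all arrays 28.6% rose and 14.3% fell, beside 14.6% and 9.28% of all genes. TGFB2, a TGF-beta ligand, was at 10.03 and 10.01 in FLI1 shRNA cells, against 6.90 and 7.08 in lacZ shRNA cells, an 8.16-fold rise. The receptor TGFBR2 gave 9.72 and 9.71 after FLI1 shRNA, compared with 8.68 and 8.73 after lacZ shRNA (1.01 ± 0.07, adjusted p = 7.46e-06), and SMAD3, which carries the signal to the nucleus, 10.22 and 10.11 on the FLI1 shRNA arrays and 9.46 and 9.30 on the lacZ shRNA arrays (0.78 ± 0.08, adjusted p = 7.18e-05). Ligand, receptor and transducer were thus all higher on both FLI1 shRNA arrays. BMP5, a bone morphogenetic protein, gave 7.72 and 7.72 in FLI1 shRNA cells, against 6.11 and 5.57 in lacZ shRNA cells (1.88 ± 0.15), with the lacZ arrays 0.5 apart, and GDF15, a stress-induced ligand, gave 10.85 and 10.96 after FLI1 shRNA, compared with 9.19 and 9.25 after lacZ shRNA (1.68 ± 0.09). FSTL1, a secreted follistatin-like glycoprotein, rose by 0.89.

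In the Wnt list of 63 genes, 12 rose and 9 fell (14.3%, beside 9.28% of all genes). DKK1, which blocks Wnt coreceptors and had the largest change of all genes, was at 10.68 and 10.55 on the FLI1 shRNA arrays and 5.99 and 6.04 on the lacZ shRNA arrays, a 24.4-fold rise. KREMEN1, a receptor of DKK1, rose by 0.84 and FZD6, a Wnt receptor, by 1.02. AMER2, which binds APC, gave 7.49 and 7.29 in FLI1 shRNA cells, against 8.82 and 8.69 in lacZ shRNA cells (-1.37 ± 0.09), CER1, a secreted antagonist of Nodal and BMP, 8.62 and 8.87 after FLI1 shRNA, compared with 10.04 and 9.98 after lacZ shRNA (-1.27 ± 0.11), and ROR1, a Wnt5a receptor, 8.43 and 8.53 on the FLI1 shRNA arrays and 9.68 and 9.61 on the lacZ shRNA arrays (-1.17 ± 0.09). Of 67 growth factors and their receptors 14 rose and 11 fell (20.9% and 16.4%, beside 14.6% and 9.28% of all genes). KDR, the main VEGF receptor, gave 7.33 and 7.37 in FLI1 shRNA cells, against 5.42 and 5.59 in lacZ shRNA cells (1.85 ± 0.12, adjusted p = 3.81e-06) and PGF, placental growth factor, 10.44 and 10.46 after FLI1 shRNA, compared with 8.89 and 9.02 after lacZ shRNA (1.50 ± 0.10, adjusted p = 3.89e-06). VEGFA itself fell by 0.63. Of the other receptor tyrosine kinases, PDGFRB rose by 1.08, and KIT, the stem cell factor receptor, gave 7.20 and 7.19 on the FLI1 shRNA arrays and 8.65 and 8.53 on the lacZ shRNA arrays (-1.39 ± 0.08, adjusted p = 1.37e-06).

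Of 70 listed cytokines, chemokines and their receptors, 31 rose (44.3%) and 0 fell in the limma fit, 39 did not pass, 10 rose by over 2-fold, and the median was 0.26. The families taken whole by symbol moved less: of 34 CCL and CXCL genes 5 rose (14.7%, beside 14.6% of all genes) and 1 fell, at a median of 0.07, and of 83 interleukins and their receptors 20 rose and 4 fell, at a median of 0.02. At an unadjusted p under 0.05, 2 of the 70 were lower. Among CCL and CXCL genes outside that list CCL4 fell by 0.70, a call lost without array 1 of either group. CXCL14, a chemokine, gave 8.72 and 8.65 in FLI1 shRNA cells, against 6.34 and 6.41 in lacZ shRNA cells (2.31 ± 0.10, adjusted p = 3.39e-07). TNFSF4, the T-cell costimulator OX40 ligand, gave 6.66 and 6.63 after FLI1 shRNA, compared with 5.43 and 5.21 after lacZ shRNA (1.33 ± 0.11). TNFSF18, the GITR ligand, which is not in the list, gave 6.43 and 6.37 on the FLI1 shRNA arrays and 4.51 and 4.22 on the lacZ shRNA arrays (2.04 ± 0.09). IL33, a nuclear alarmin, rose by 1.52. CCL2, a monocyte chemoattractant, and IL1A gave 1.45 ± 0.09 and 1.43 ± 0.10. For those last 2 genes the untreated arrays (CCL2 at 8.19 and 8.21, IL1A at 8.24 and 8.36) lay below the lacZ shRNA means of 8.92 and 8.89, so lacZ shRNA cells were above untreated cells as well. TNFAIP6, the brightest gene of the list, did not pass at 12.58 and 12.64 in FLI1 shRNA cells, against 12.46 and 12.48 in lacZ shRNA cells.

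Interferon-stimulated genes rose by smaller steps. Of 42, 22 rose and 1 fell, at a median of 0.37; the fall, of HERC5, was lost without any 1 of the 4 arrays. SAMD9 gave 7.18 and 7.05 after FLI1 shRNA, compared with 6.13 and 5.74 after lacZ shRNA (1.18 ± 0.13, adjusted p = 1.09e-04), GBP3, a guanylate-binding GTPase, 1.04 ± 0.15, and IFIT1, which binds foreign RNA, 1.01 ± 0.18. PARP14 and IFIT3 rose by 0.88 and 0.85, and BST2, tetherin, by 0.94, with FLI1 shRNA arrays 0.5 apart; BST2 lost its call without array 1 of either group. IFI16, a DNA sensor and the brightest of them, gave 0.17 ± 0.07 and did not pass. Both groups received lentivirus, and none of the 12 arrays is of uninfected cells at 48 h. Of 23 genes of antigen presentation 11 rose and 3 fell; 1 fell without FLI1 shRNA array 1. CD274, the checkpoint ligand PD-L1, gave 5.58 and 5.52 on the FLI1 shRNA arrays and 4.39 and 3.76 on the lacZ shRNA arrays (1.47 ± 0.18, adjusted p = 2.29e-04), a rise at the dim end of the scale with lacZ arrays 0.6 apart. MICA, a ligand of natural killer cells, TAP1, the peptide transporter, and TAPBP, tapasin, rose by 0.78, 0.55 and 0.53, and B2M gave 11.73 and 11.74 in FLI1 shRNA cells, against 11.61 and 11.64 in lacZ shRNA cells without passing. TAPBP and HLA-DPB1 are uncertain, since another probe set of TAPBP gave -0.18, and those of HLA-DPB1 gave -0.88 and 0.49.

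**Figure D3:**
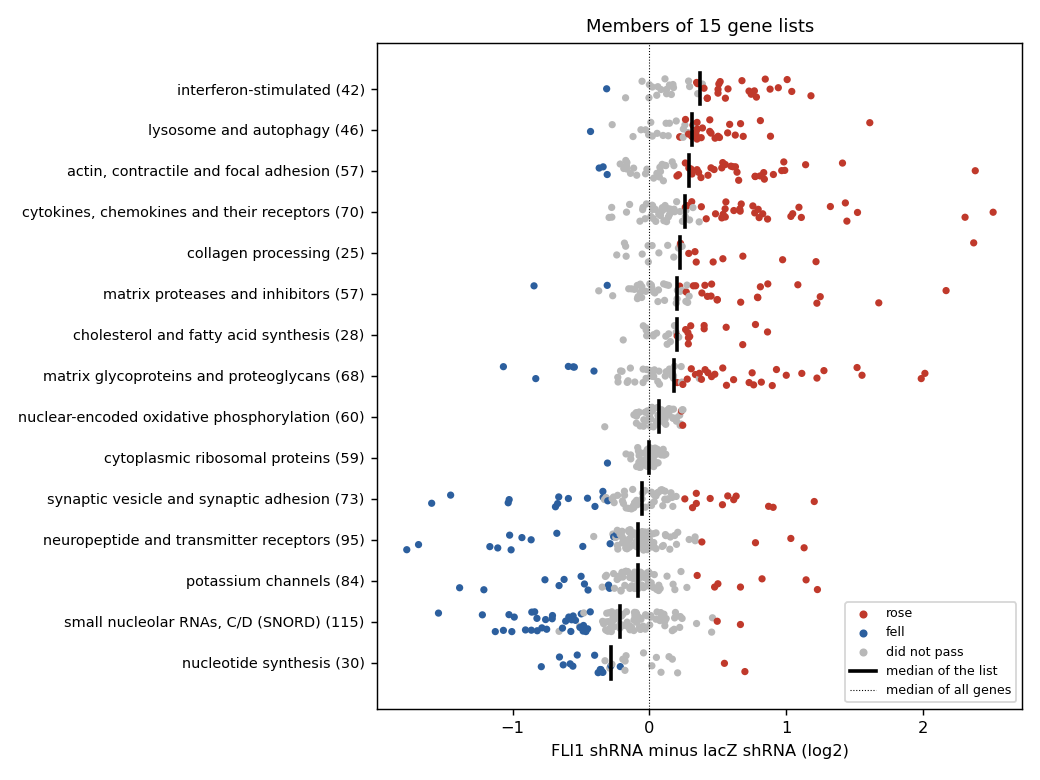
Each dot is a member of 1 of 15 gene lists (number measured in brackets), placed by its FLI1 shRNA minus lacZ shRNA difference (log2); red rose, blue fell and grey did not pass, a thick line marks the list's median and the dotted line the median of all genes. List medians run between 0.37 for interferon-stimulated genes and -0.28 for nucleotide synthesis, and ribosomal proteins cluster on the dotted line.

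More receptors of neural signalling fell than rose, the other way from the split over all genes. Of 95 receptors for neuropeptides and transmitters, 13 fell and 4 rose (13.7% and 4.21%, beside 9.28% and 14.6% of all genes). By over 2-fold 6 were lower and 2 higher, and 78 did not pass. NPY1R, the neuropeptide Y receptor, was at 9.69 and 9.75 after FLI1 shRNA, compared with 11.50 and 11.49 after lacZ shRNA, which left 29.2% of the lacZ signal. GRM2, a metabotropic glutamate receptor, gave 6.48 and 6.47 on the FLI1 shRNA arrays and 8.30 and 8.03 on the lacZ shRNA arrays (-1.69 ± 0.09, adjusted p = 1.50e-06). MTNR1A, a melatonin receptor, gave -1.17 ± 0.08 and ADRB3, a beta-adrenergic receptor at a high level here, 10.53 and 10.59 in FLI1 shRNA cells, against 11.67 and 11.67 in lacZ shRNA cells (-1.11 ± 0.07). The 2 receptors that rose past 2-fold were those of vasoactive peptides: EDNRB, for endothelins, at 5.57 and 5.68 after FLI1 shRNA, compared with 4.52 and 4.46 after lacZ shRNA (1.13 ± 0.10), and BDKRB1, for kinins, at 7.00 and 7.18 on the FLI1 shRNA arrays and 6.01 and 6.10 on the lacZ shRNA arrays (1.04 ± 0.12). Among 14 neurotrophic genes 3 fell and 2 rose (21.4% and 14.3%, beside 9.28% and 14.6% of all genes). Neither rise kept its call without FLI1 shRNA array 2. NGFR, the low-affinity neurotrophin receptor, gave 8.42 and 8.55 in FLI1 shRNA cells, against 10.13 and 10.06 in lacZ shRNA cells (-1.61 ± 0.08, adjusted p = 1.16e-06), GFRA2, the neurturin coreceptor, 8.90 and 8.59 after FLI1 shRNA, compared with 10.49 and 10.51 after lacZ shRNA, and ARTN, a GDNF-family ligand, -0.72 ± 0.11. MDK, midkine, the brightest of the 14, gave 0.16 ± 0.08 and did not pass.

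Of 84 potassium channel genes 10 fell (11.9%, beside 9.28% of all genes) and 7 rose (8.33%, beside 14.6%), so the family as a whole was called about as often as all genes; without FLI1 shRNA array 2, 6 fell. KCNE3, an accessory subunit, gave 7.16 and 7.14 on the FLI1 shRNA arrays and 8.54 and 8.54 on the lacZ shRNA arrays (-1.39 ± 0.07, adjusted p = 1.31e-06) and KCNN1, a calcium-activated channel, 9.13 and 8.97 in FLI1 shRNA cells, against 10.28 and 10.24 in lacZ shRNA cells (-1.21 ± 0.09). KCND1, a transient voltage-gated channel, gave 8.47 and 8.54 after FLI1 shRNA, compared with 7.35 and 7.20 after lacZ shRNA (1.23 ± 0.11), and KCNMB4, a subunit of the large-conductance channel, rose by 1.15. KCNE4, the brightest, gave -0.17 ± 0.09 and did not pass. Of 75 sodium, calcium, chloride and TRP channel genes 15 rose and 9 fell, and those counts were 4 and 5 without FLI1 shRNA array 1. SCNN1G, the gamma chain of the sodium channel of epithelia, was the deepest fall of all genes at 7.89 and 8.05 on the FLI1 shRNA arrays and 10.53 and 10.54 on the lacZ shRNA arrays, which left 16.9% of the lacZ signal, and its neighbour and partner SCNN1B gave -0.57 ± 0.07. CACNB2, a calcium channel subunit, and TRPC4 fell (-0.77 and -0.65), while SCN9A, a sodium channel of sensory neurons, rose by 1.02.

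Of 67 axon guidance genes 16 rose and 11 fell (23.9% and 16.4%, beside 14.6% and 9.28% of all genes). The netrin receptors parted: UNC5C gave 6.98 and 7.30 in FLI1 shRNA cells, against 5.34 and 5.31 in lacZ shRNA cells (1.81 ± 0.14, adjusted p = 9.62e-06), whereas UNC5A gave 7.52 and 7.52 after FLI1 shRNA, compared with 8.59 and 8.62 after lacZ shRNA (-1.09 ± 0.09, adjusted p = 1.17e-05). SEMA3A, a repelling semaphorin, rose by 1.44 and EPHA4, an ephrin receptor, by 0.90, and EFNB2, an ephrin ligand, gave 6.08 and 6.17 on the FLI1 shRNA arrays and 7.71 and 7.66 on the lacZ shRNA arrays (-1.56 ± 0.08). Of 73 synaptic genes 12 rose and 13 fell (16.4% and 17.8%). SYNPR, synaptoporin of synaptic vesicles, gave 7.90 and 8.00 in FLI1 shRNA cells, against 9.61 and 9.49 in lacZ shRNA cells (-1.59 ± 0.11), DPYSL5, a collapsin response mediator, -1.45 ± 0.08, and SV2B and LRFN5 -1.03 and -1.03. GAP43, a growth cone protein, and RAB3B rose by 1.21 and 0.91. DPYSL2, the brightest member, gave 12.42 and 12.37 after FLI1 shRNA, compared with 12.46 and 12.39 after lacZ shRNA and did not pass. The neuroendocrine markers did not fall with them: NCAM1, CHGB and SYP rose by 0.72, 0.42 and 0.34, and ENO2, at -0.01, and CHGA did not pass. The call of SYP was lost without any 1 of the 4 arrays and that of CHGB without FLI1 shRNA array 1 or lacZ shRNA array 2.

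**Figure D4:**
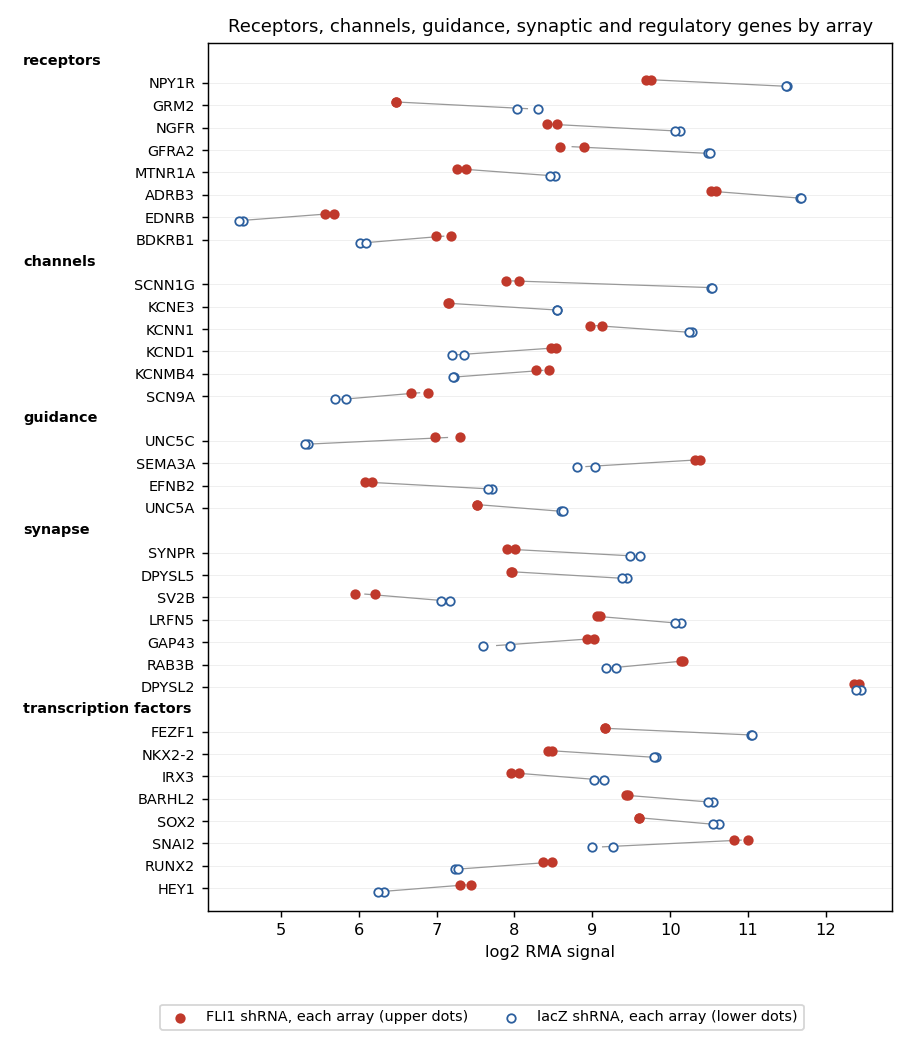
Each row is a gene, the x axis its log2 RMA signal; filled dots are the 2 FLI1 shRNA arrays and open dots the 2 lacZ shRNA arrays, with a line between the group means. Falls and rises stand side by side in each class, as for UNC5C and UNC5A, and DPYSL2 alone shows overlapping groups.

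Of 120 homeobox genes 17 rose and 17 fell (14.2% each, beside 14.6% and 9.28% of all genes), and the 3 past 2-fold were falls; 8 rose without lacZ shRNA array 2. The deepest was NKX2-2, at -1.35. IRX3 gave 8.06 and 7.96 on the FLI1 shRNA arrays and 9.03 and 9.14 on the lacZ shRNA arrays (-1.08 ± 0.10), BARHL2, of retina and diencephalon, 9.46 and 9.44 in FLI1 shRNA cells, against 10.55 and 10.49 in lacZ shRNA cells (-1.07 ± 0.09), and ISL1, POU4F1, of sensory neurons, and PAX7 fell, with differences of -0.92, -0.92 and -0.91. Of 27 genes in the HOX clusters 9 rose and 2 fell (33.3% and 7.41%, beside 14.6% and 9.28% of all genes). The steepest were HOXB8 at 0.57 and HOXD13 at -0.43. Most of these rises lost their call without lacZ shRNA array 2, and only part of the falls were kept without FLI1 shRNA array 1. Of 96 SOX, forkhead, bHLH and related genes 12 rose (12.5%) and 15 fell (15.6%), and 6 rose without FLI1 shRNA array 1. SNAI2, the repressor Slug of epithelial-mesenchymal transition, averaged 10.91 in FLI1 shRNA cells and 9.13 in lacZ shRNA cells (1.78 ± 0.12, adjusted p = 3.81e-06), and HEY1, a Notch target, gave 7.31 and 7.45 after FLI1 shRNA, compared with 6.33 and 6.24 after lacZ shRNA (1.09 ± 0.13). SOX2, of neural progenitors, gave 9.61 and 9.60 on the FLI1 shRNA arrays and 10.63 and 10.55 on the lacZ shRNA arrays (-0.99 ± 0.08), and its close relative SOX1 -0.86 ± 0.08. MYB, a factor of blood progenitors outside the list, gave 6.35 and 6.43 in FLI1 shRNA cells, against 8.04 and 7.80 in lacZ shRNA cells (-1.53 ± 0.10). Among feedback and early genes of the ERK pathway PHLDA1 gave 9.49 and 9.47 after FLI1 shRNA, compared with 7.63 and 7.55 after lacZ shRNA (1.89 ± 0.09), and the Sprouty inhibitors SPRY1 and SPRY2 rose by 1.49 and 1.08. Of the 36, 14 rose (8 without FLI1 shRNA array 1) and 6 fell, CCND1, cyclin D1, most at -0.99. Of 27 CDK inhibitor and p53 target genes 11 rose and FAS, a death receptor, fell by 0.41; PLK2 and TP53INP1 led with 1.36 and 1.04.

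Nucleotide synthesis leaned lower. Of 30 genes of nucleotide synthesis 14 fell and 2 rose, at a median of -0.28, none by over 2-fold (46.7% and 6.67%, beside 9.28% and 14.6% of all genes). RRM2, the ribonucleotide reductase subunit made in S phase, gave 9.73 and 9.75 on the FLI1 shRNA arrays and 10.55 and 10.50 on the lacZ shRNA arrays (-0.79 ± 0.08, adjusted p = 4.64e-05), TYMS, thymidylate synthase, -0.66 ± 0.09, CTPS1 -0.63 ± 0.07 and UMPS -0.58 ± 0.09. The 2 that rose, RRM2B, the p53-induced reductase subunit, at 0.70 and SAMHD1, which breaks down dNTPs, at 0.55, were lost without FLI1 shRNA array 1, FLI1 shRNA array 2 or lacZ shRNA array 2. Of 29 serine, one-carbon and amino acid genes 6 rose and 4 fell (2 without lacZ shRNA array 1). With all arrays 20.7% rose and 13.8% fell, beside 14.6% and 9.28% of all genes. MTHFD2, the mitochondrial folate enzyme, fell by 0.69 and PHGDH gave -0.04. Of 41 amino acid transporters 7 rose (17.1%) and 6 fell (14.6%, 3 without FLI1 shRNA array 1), shares not far from those of all genes: SLC7A8 gave 10.93 and 10.94 in FLI1 shRNA cells, against 9.72 and 9.64 in lacZ shRNA cells (1.26 ± 0.08), SLC43A1 8.09 and 8.30 after FLI1 shRNA, compared with 9.51 and 9.43 after lacZ shRNA (-1.28 ± 0.08) and SLC1A4 -1.03 ± 0.06.

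Lysosome and autophagy genes rose in 27 of 46 cases and fell in 1 (SMPD1), at a median of 0.31, and 17 rose without FLI1 shRNA array 2. WIPI1, which binds the phagophore membrane, gave 7.95 and 7.77 on the FLI1 shRNA arrays and 6.16 and 6.33 on the lacZ shRNA arrays (1.61 ± 0.12, adjusted p = 9.42e-06), and LIPA, acid lipase, CTSL, cathepsin L, and NEU1 rose by 0.89, 0.81 and 0.69. Of 28 cholesterol and fatty acid genes 13 rose and 0 fell in the limma fit (1 was lower at an unadjusted p under 0.05), led by ACSS2 and HMGCS1 at 0.87 and 0.78; 5 rose without FLI1 shRNA array 1. The tryptophan pathway was split by enzyme. TDO2, which opens the ring, was at 10.12 and 10.26 in FLI1 shRNA cells, against 7.26 and 7.07 in lacZ shRNA cells. The untreated arrays were at 5.52 and 5.96, below both shRNA groups. KMO, which hydroxylates kynurenine, gave 6.61 and 6.58 after FLI1 shRNA, compared with 8.12 and 8.08 after lacZ shRNA (-1.50 ± 0.08, adjusted p = 1.56e-06). KYNU, kynureninase, gave 7.60 and 7.53 on the FLI1 shRNA arrays and 6.16 and 5.76 on the lacZ shRNA arrays. The difference was 1.61 ± 0.44 (limma adjusted p = 0.0236), with a wide error that is pooled over all arrays of the series. The limma adjusted p was 0.00135 with only the 4 shRNA arrays and 0.0766 with a trended robust prior. KYNU lost its call with any 1 of the 4 arrays left out, where the difference lay between 1.40 and 1.81. In the same list CYP1B1 and AKR1C2 rose by 1.13 and 1.04 and DHRS3, which reduces retinal, fell by 1.08; the AKR1C genes are close copies and their probes may cross-read. EPAS1, the hypoxia factor HIF-2 alpha, gave 8.40 and 8.26 in FLI1 shRNA cells, against 6.66 and 6.69 in lacZ shRNA cells (1.65 ± 0.10), and CA12, a carbonic anhydrase, 1.47 ± 0.08, whereas GAPDH gave 13.63 and 13.65 after FLI1 shRNA, compared with 13.62 and 13.62 after lacZ shRNA.

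Families of basic cell machinery, with the ZNF and olfactory receptor families, gave the flat part of the picture. Of 60 nuclear genes of oxidative phosphorylation 2 rose and 0 fell in the limma fit (1 was lower at an unadjusted p under 0.05), and 0 rose without FLI1 shRNA array 1. Of 59 cytoplasmic ribosomal proteins RPL26 fell, by 0.31, a call lost without FLI1 shRNA array 2 or either lacZ shRNA array. Of 47 genes of the proteasome series 2 rose and 3 fell (0 rose without lacZ shRNA array 2 and 1 fell without FLI1 shRNA array 2). Among 74 mitochondrial ribosomal proteins 1 rose and 2 fell (0 rose without FLI1 shRNA array 1), and MRPS23 stood apart at 7.18 and 7.37 on the FLI1 shRNA arrays and 8.53 and 8.48 on the lacZ shRNA arrays (-1.23 ± 0.11, adjusted p = 1.94e-05), the next change being MRPL17 at -0.40. Zinc finger genes of the ZNF series passed in 51 of 494 cases, 34 higher and 17 lower, with 10 higher without lacZ shRNA array 2 and 7 lower without FLI1 shRNA array 1. With all arrays 6.88% of the ZNF genes rose and 3.44% fell, beside 14.6% and 9.28% of all genes. Of 360 olfactory receptors 11 fell (3.06%) and 0 rose in the limma fit (4 were higher at an unadjusted p under 0.05). Their median lacZ level was 4.58, within the lowest quartile of genes (2.26 to 5.88), where 5.56% rose and 2.7% fell. The part of this low level in their few calls was not tested.

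Several of the largest changes lie outside these lists. EHD3, which recycles endosomes, gave 9.49 and 9.26 in FLI1 shRNA cells, against 7.11 and 7.15 in lacZ shRNA cells (2.24 ± 0.10), TMTC1, a mannosyltransferase of cadherins, 2.10 ± 0.10, and SESN3, a sestrin under FOXO control, 2.02 ± 0.15. CCDC80, a secreted matrix-bound protein, DCLK1, a microtubule-binding kinase, and CREB3L1, an endoplasmic reticulum factor that drives collagen genes, rose by 2.03, 1.97 and 1.82. SUCNR1, the succinate receptor, gave 5.57 and 5.33 after FLI1 shRNA, compared with 3.48 and 3.40 after lacZ shRNA (2.01 ± 0.11), a rise within the dim range of the array. TYRP1, a melanin enzyme, rose by 1.80. On the other side GPR160 gave 6.05 and 6.14 on the FLI1 shRNA arrays and 7.71 and 7.58 on the lacZ shRNA arrays (-1.56 ± 0.11), RUBCNL, an autophagy regulator, 8.60 and 8.68 in FLI1 shRNA cells, against 10.20 and 10.10 in lacZ shRNA cells (-1.51 ± 0.08), and PRR5L, which binds mTORC2, LBH, FAM136A and MORC1 -1.46, -1.45, -1.47 and -1.56. RIMBP3 gave -1.68 on its brighter probe set and -0.75 on the other.

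Small nucleolar RNA genes fell more often than they rose, the other way from protein-coding genes, and so did long non-coding genes, which were called less often. Of 175 small nucleolar RNA genes 42 fell (24.0%) and 2 rose (1.14%), beside 9.40% and 15.7% of 16894 protein-coding genes. Small nucleolar RNAs guide chemical marks on ribosomal RNA and are mostly cut from introns of host genes, so their probe sets may read the host's unspliced RNA as well. In the C/D class 33 of 115 fell, but 14 did so without FLI1 shRNA array 1, and in the H/ACA class 9 of 61 fell, and 2 without lacZ shRNA array 1. SNORD20 gave 4.11 and 4.11 after FLI1 shRNA, compared with 5.66 and 5.65 after lacZ shRNA (-1.54 ± 0.13, adjusted p = 2.02e-05) and SNORD28 9.38 and 9.76 on the FLI1 shRNA arrays and 10.74 and 10.84 on the lacZ shRNA arrays (-1.22 ± 0.14, adjusted p = 1.41e-04). SNORD79, SNORD75, SNORD78 and SNORD44, which lie together on chromosome 1, gave -1.13, -1.07, -1.03 and -1.01 and all fell, as did SNORA75 (-1.01). For SNORD79 the untreated arrays, at 8.90 and 8.83, lay between the FLI1 shRNA arrays, at 8.39 and 8.43, and the lacZ shRNA arrays, at 9.55 and 9.54, and the same held for SNORD75, SNORD78 and SNORD44. The long non-coding RNA EWSAT1, an Ewing sarcoma-associated transcript, gave 7.01 and 6.83 in FLI1 shRNA cells, against 8.57 and 8.53 in lacZ shRNA cells (-1.63 ± 0.11, adjusted p = 4.57e-06). EWSAT1 was 1 of 38 that fell (6.07%) among 626 long non-coding genes, in which 16 rose (2.56%), both shares under those of protein-coding genes.

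Of 189 microRNA genes, whose probes read the hairpin or its host transcript and not the mature strand, 6 rose and 6 fell. That is 3.17% each way, well under the 14.6% and 9.28% of all genes. The mature sequences of 11 of the 12 are given from RefSeq (GRCh38.p14), with the seed, bases 2 to 8, in capitals, because 2 pairs among these called genes share one; the remaining gene, MIR17HG, is the host of a cluster. The 6 that rose come first and the 5 that fell after them.
hsa-let-7a-5p: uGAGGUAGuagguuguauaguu
hsa-let-7c-5p: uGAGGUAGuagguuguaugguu
hsa-miR-21-5p: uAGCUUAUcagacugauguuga
hsa-miR-24-3p: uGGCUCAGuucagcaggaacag
hsa-miR-27a-3p: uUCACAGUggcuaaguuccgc
hsa-miR-181b-5p: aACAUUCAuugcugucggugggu
hsa-miR-25-3p: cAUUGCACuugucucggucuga
hsa-miR-32-5p: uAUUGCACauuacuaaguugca
hsa-miR-15a-5p: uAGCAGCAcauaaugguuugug
hsa-miR-138-5p: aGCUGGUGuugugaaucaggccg
hsa-miR-147a: gUGUGUGGaaaugcuucugc

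The let-7 genes MIRLET7A2 and MIRLET7C, which share the seed GAGGUAG, rose by 0.85 and 0.31; MIRLET7A2 on chromosome 11 gave 5.50 and 5.55 after FLI1 shRNA, compared with 4.77 and 4.58 after lacZ shRNA. MIR24-2 and MIR27A are neighbours on chromosome 19 with different seeds and rose by 0.74 and 0.43. MIR21 on chromosome 17 gave 6.09 and 6.26 on the FLI1 shRNA arrays and 5.77 and 5.33 on the lacZ shRNA arrays (0.63 ± 0.18, adjusted p = 0.0283), and MIR181B1 0.61 ± 0.18. MIR25 and MIR32 lie on chromosomes 7 and 9, share the seed AUUGCAC and gave -0.39 and -0.86. MIR15A, MIR138-1 and MIR147A gave -0.53, -0.47 and -0.58. MIR17HG, host of the miR-17-92 cluster, gave 5.61 and 5.96 in FLI1 shRNA cells, against 6.78 and 6.61 in lacZ shRNA cells (-0.91 ± 0.15, adjusted p = 0.00155). These calls were thin: MIR21, MIR27A, MIR181B1, MIRLET7C, MIR15A and MIR32 lost theirs in 2 or 3 of the 4 fits that left out 1 array, MIR21, MIR27A, MIR15A and MIR32 without FLI1 shRNA array 1 and MIR181B1 and MIRLET7C without FLI1 shRNA array 2 or lacZ shRNA array 2.

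Called genes also stood side by side on the chromosomes. Over 18373 genes with a position in RefSeq there were 20 runs of 4 or more neighbours that rose and 13 runs that fell, with 91 and 69 genes, counted without a test. Since 14.6% of all genes rose and 9.28% fell, some runs would arise in any order, and how many was not counted. Most members below were chosen after their values were seen. The longest, at 9 genes, were in the histone clusters of chromosome 6 and fell, where probes of like genes may cross-read. On chromosome 1, at 85018082 to 85583950, 7 neighbours rose, among them CCN1 (1.52), DNAI3 (1.75) and DDAH1, which breaks down methylarginines (1.14). On chromosome 2, at 186590056 to 188595926, a run of 6 held ITGAV, CALCRL, the receptor of adrenomedullin (1.37), TFPI and GULP1, an adaptor for engulfment (1.42), so an integrin and a coagulation inhibitor named above are neighbours. ADM, the ligand of CALCRL, is on chromosome 11 and rose by 1.06. On chromosome 22 the cytidine deaminases APOBEC3B, APOBEC3C, APOBEC3D, APOBEC3F and APOBEC3G rose by 0.34, 0.62, 0.40, 0.97 and 0.97; these are close copies whose probes may cross-read. Falls lay together on chromosome 7, where 6 neighbours included FEZF1, a forebrain zinc finger factor at -1.88, RNF148 and RNF133 (-1.11 and -0.91), on chromosome 16 with SCNN1G, SCNN1B, USP31 and HS3ST2, and on chromosome 2 with NCL, nucleolin (-0.40), and SNORA75, SNORD20 and SNORD82, all 3 within its introns. HS3ST2, SNORD82, RNF133 and APOBEC3B each lost the call without either FLI1 shRNA array or without lacZ shRNA array 2, USP31 without array 1 of either group and APOBEC3D without array 2 of either group. Gene span moved with the calls as well: 21.8% of the 4224 protein-coding genes with the longest spans rose, as did 9.54% of the 4225 with the shortest, with 97 and 36 genes higher by over 2-fold.

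Promoters of the genes past 2-fold were compared with those of all genes for 5 words that transcription factors bind, by their shares and without a test. The window was 250 bases before and 50 after the first start that RefSeq lists for a gene, both strands were searched, and 14230 genes had one. TGACTCA, the site of AP-1, was in 8.11% of 185 windows of higher genes, in 3.70% of 81 windows of lower genes and in 3.56% of all. GGAATG, the core of a TEAD site, was in 17.8% of the higher, 4.94% of the lower and 11.6% of all, and GGAAGGAA, a repeated ETS core, in 7.03%, 2.47% and 3.58%. CCGGAAG, the high-affinity single ETS site, was rarer in both changed sets, at 4.32% of the higher and 4.94% of the lower against 14.6% of all. TTTCGCGC, an E2F site, was in 0 of the 185, in 3.70% of the 81 and in 0.836% of all. The higher genes' windows were also poorer in G and C, with a median of 56.7% against 64.7% in lower genes and 63.0% in all, and the part of composition in the shares was not tested. Over all genes that rose, each of the 5 shares lay closer to that of all genes than it did past 2-fold. The single ETS site was in 15.4% of genes that rose and 14.4% of those that fell, the repeated core in 3.63% and 2.65%, TGACTCA in 4.25% and 2.80%, and GGAATG within 1 percentage point of its share in all genes, and the E2F word in 0.448% and 2.57%. The lower G and C content of the higher genes did not hold there, with medians of 65.0% in genes that rose and 64.7% in those that fell. The counts behind the shares are small, 15 windows with TGACTCA and 13 with GGAAGGAA among the higher genes. Among the 81 windows of lower genes 2 held GGAAGGAA, 3 TGACTCA, 3 TTTCGCGC, 4 GGAATG and 4 CCGGAAG.

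Of the 11 steepest rises 5 hold GGAATG or TGACTCA in the window, and CRYAB has no window. The cut at 11 ends on CXCL14, which holds a word, and EHD3, PLAU, TMTC1 and NT5E, which follow in size, hold neither. Over all windows GGAATG was in 11.6% and TGACTCA in 3.56%. The 4 printed up to the start, with IGFBP5 left out, are examples picked for holding a word. Capitals mark GGAATG or its reverse complement in DKK1, TGFB2 and ANKRD1, and the reverse complement of TGACTCA in CXCL14. DKK1 is at chr10:52314031-52314280 on the plus strand, TGFB2 at chr1:218345086-218345335 on the plus strand, ANKRD1 at chr10:90921088-90921337 and CXCL14 at chr5:135578992-135579241, both on the minus strand (GRCh38.p14).
DKK1: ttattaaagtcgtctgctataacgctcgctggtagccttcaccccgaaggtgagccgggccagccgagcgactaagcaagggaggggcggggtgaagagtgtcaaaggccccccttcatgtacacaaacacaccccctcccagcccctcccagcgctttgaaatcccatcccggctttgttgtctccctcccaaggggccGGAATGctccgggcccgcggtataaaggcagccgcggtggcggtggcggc
TGFB2: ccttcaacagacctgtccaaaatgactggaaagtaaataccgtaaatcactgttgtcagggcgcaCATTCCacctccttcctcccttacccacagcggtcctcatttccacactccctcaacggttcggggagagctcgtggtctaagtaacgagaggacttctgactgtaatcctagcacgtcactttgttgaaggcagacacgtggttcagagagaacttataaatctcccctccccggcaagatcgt
ANKRD1: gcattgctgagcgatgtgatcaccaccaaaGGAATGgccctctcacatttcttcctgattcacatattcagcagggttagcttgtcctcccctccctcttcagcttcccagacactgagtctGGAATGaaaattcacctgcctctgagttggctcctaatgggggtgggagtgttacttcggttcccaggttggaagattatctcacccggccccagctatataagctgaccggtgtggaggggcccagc
CXCL14: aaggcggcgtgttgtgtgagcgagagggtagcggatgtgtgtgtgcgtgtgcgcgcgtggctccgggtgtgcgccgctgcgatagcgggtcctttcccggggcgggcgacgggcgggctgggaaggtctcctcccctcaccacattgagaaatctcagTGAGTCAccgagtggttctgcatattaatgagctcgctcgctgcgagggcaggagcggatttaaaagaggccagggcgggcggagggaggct

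The word begins 50 bases before the start in DKK1, 185 before it in TGFB2, 220 and 128 before it in ANKRD1 and 92 before it in CXCL14. In FLI1 shRNA cells these 4 genes reached 10.62, 10.02, 8.83 and 8.69, against 6.01, 6.99, 6.44 and 6.38 in lacZ shRNA cells. A word in a window is a description of its letters and not a measured binding site.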

How the data were processed

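RNA of the 12 A673 samples was measured on Affymetrix HuGene 1.0 ST arrays. The authors corrected background, normalized by RMA in the R package affy and deposited the result as log2 signal (no affy version is named in the sources used). Quantile normalization within RMA gives all arrays a like distribution, so a shift common to most genes would not be seen. Of 32321 probe sets, 19158 had a single gene symbol, and for each of 18404 genes (637 had several) the brightest by its mean on the 12 arrays was kept. A mean per group was fitted to all 12 arrays with limma (version 3.58.1, R 4.3.3), which leaves 6 residual degrees of freedom. FLI1 shRNA minus lacZ shRNA was tested with moderated statistics and Benjamini-Hochberg adjustment over all genes. A gene rose or fell at an adjusted p under 0.05, and counts past 2-fold also needed an adjusted p under 0.01. The code was tested on simulated data. The number of arrays limits the precision: the median standard error of a difference was 0.10 on the log2 scale.

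Members and lists were chosen with earlier results of these data known, and lists are described by counts and medians without a set test. Genes named are FLI1 and EWSR1, genes among the 30 largest rises and 30 largest falls past 2-fold, up to 6 of the largest changes in each list or family, and the brightest member where it did not pass; marker genes, members of neighbour runs, TNFSF18, MYB, MCAM and other genes outside this rule were chosen after their values were seen. Gene positions, promoters and microRNA sequences came from RefSeq (GRCh38.p14), and 164 of 189 microRNA genes had a sequence. Alternatives were quantile normalization again, centring on 59 ribosomal protein genes, leaving out dim genes, under the 40th percentile of their mean, the mean of a gene's probe sets, only the 4 shRNA arrays, a trended robust prior, a replicate block, and each array left out.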

Additional observations from a re-analysis of the deposited data

How the results depend on the processing

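The counts depend on each array, with 2 per group. With 1 of the 4 arrays left out, genes called numbered 2633 to 3365, those that rose 1562 to 2178 and those that fell 1010 to 1216, beside 4398, 2691 and 1707 with all arrays; the lone array left is then assumed to vary like the other groups. FLI1 itself lay between -1.46 and -1.24 in those fits. Leaving out genes below the 40th percentile of mean level gave 133 genes higher by over 2-fold instead of 222, because 11042 genes were then tested. Quantile normalization again gave 2365 rises and 2069 falls, and ribosomal protein centring 2907 and 1587. None of 1160 single-gene differences was reversed under these alternatives. Few reversals were possible, since these genes, the 60 largest changes among them, were chosen as called with all arrays. The replicate block, the 4 shRNA arrays alone and the trended robust prior also leave each difference as it was. Of 1272 called genes of the lists, neighbour runs and largest changes, 748 kept their call with any 1 array left out, as did all 60 largest changes. The label numbers name the replicates, and nothing in the labels says whether they mark a batch or pair. Replicate 1 minus replicate 2 correlated at -0.1681 between the shRNA groups. Over all pairs of groups such correlations ran from -0.453 to 0.3352, so that value cannot settle it. With a replicate block 4203 genes were called. With the lacZ shRNA numbers crossed in the block, an alternative chosen after seeing the data, 4043 were called.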
